A study of Homo sapiens with 2 samples.

Results

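SGK1 encodes a serine and threonine kinase whose transcript is induced by glucocorticoids, serum and cell stress, and it was followed here with SGK3, the glucocorticoid receptor gene NR3C1, and 6 common targets of that receptor. These 9 genes were taken from 60774 gene identifiers by matching Ensembl identifiers to GENCODE 29 symbols. SGK1 was selected on these same FPKM values, since it is among the protein-coding genes that differ most between the libraries, so the difference is a description and carries no test. The other 8 were chosen from knowledge of the pathway with earlier results of these data in view.

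The study measured RNA from MDA-MB-231, an established human triple-negative breast cancer cell line, in 2 libraries. The first came from cells with a vector control and the second from cells labelled as over-expressing YWHAB, the gene of the adaptor 14-3-3 beta. They are called the control and YWHAB libraries, and pairs of values are given in that order. There was 1 library per group, so no value has a replicate check, no p-value is given, and a difference between the libraries is not shown to be a difference between the conditions. The labels do not say whether the over-expressing cells were 1 clone or a pool, and the vector is not described further. Protocol text shared by both samples names fat cell induction with insulin, the synthetic glucocorticoid dexamethasone and isobutylmethylxanthine, which raises cyclic AMP. It also names the harvest of retinas, a tissue that a breast cancer line does not come from. Whether either culture received dexamethasone cannot be told from the labels.

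Glucocorticoids cross the membrane and bind the receptor encoded by NR3C1, which is held ready by HSP90 and its co-chaperones and then moves to the nucleus. There it binds response elements and raises transcription of genes such as TSC22D3, FKBP5, PER1, KLF9, DUSP1, ZFP36 and SGK1, and it restrains inflammatory genes driven by AP-1 and NF-kB. In breast epithelium SGK1 and DUSP1 are known as survival genes that this receptor induces. SGK kinases resemble AKT and act downstream of phosphoinositide 3-kinase, mTORC2 and PDK1. 14-3-3 proteins bind several proteins of this pathway once these are phosphorylated, among them NEDD4L, FOXO3 and the ZFP36 protein.

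The libraries held 12375999 and 13810668 fragments for control and YWHAB, as worked out from the steps of the FPKM values. YWHAB itself was at 239 FPKM in the control library and 336 FPKM in the library labelled as over-expressing it, a ratio of 1.41 (95% counting interval 1.36 to 1.45). The gene labelled as over-expressed thus did not reach 2-fold, and 8.01% of genes were at least as far above the control. All 10 markers of the breast cancer line were above the level filter, with summed FPKM of 5098 and 5953. Markers of leukocytes and fibroblasts summed to 3.65 and 2.59 FPKM and to 1.05 and 0.752 FPKM, and 8 retina markers to 0.399 and 0.608 FPKM. Of 10 adipocyte markers 2 passed the level filter, and ADIPOQ and LEP, the fat hormone genes, named after their values were seen, were listed at 0 in both libraries. PPARG, the adipocyte receptor that other cells also express, was at 19.8 and 15.5 FPKM, and the lipase gene LPL at 9.32 and 5.38. The summed adipocyte markers were 30.1 and 21.7 FPKM, and their part in the results below was not tested.

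Of the 9 genes, SGK1 alone was 2-fold higher with YWHAB and 0 were 2-fold lower. The call is a difference of at least 1 in log2(FPKM + 1), YWHAB library minus control library, among genes whose mean over both libraries reached 1 FPKM. All 9 passed that filter. Over all 13420 genes compared 0.686% were called higher and 1.97% lower, and because the choice of SGK1 used this contrast nothing is read from its share. The member next in size was SGK3, at a difference of -0.67 against 1.38 for SGK1, so no member lay near the threshold. The median difference of the 9 was -0.31, beside 0.03 over all genes compared.

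**Figure D1:**
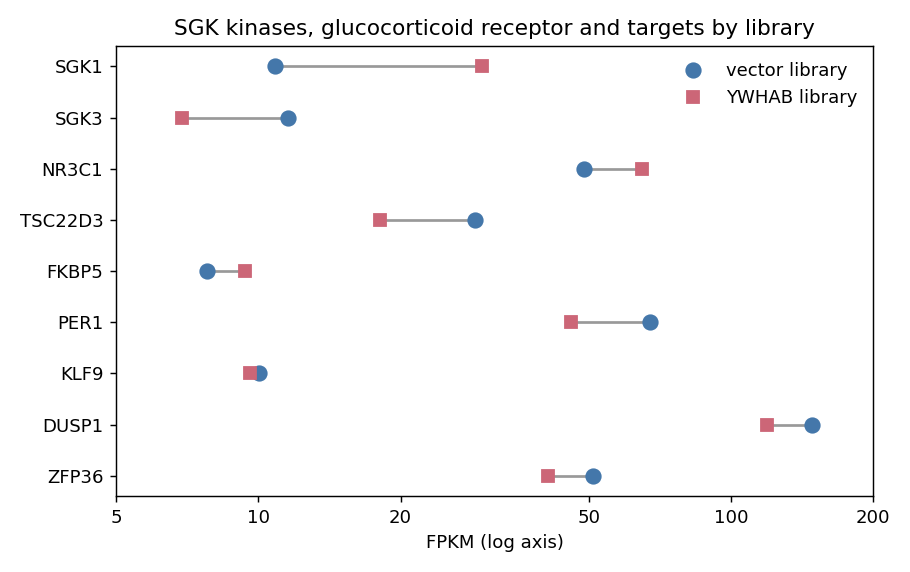
FPKM of the 9 genes on a log axis, with 1 circle for the control (vector) library and 1 square for the YWHAB library. SGK1 moves from 10.8 to 29.7 FPKM, NR3C1 and FKBP5 are also higher with YWHAB, and the other 6 are lower.

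SGK1 and SGK3, the kinases, lay on opposite sides. SGK1 (ENSG00000118515, chromosome 6 from 134169246 to 134318112 on the minus strand of GRCh38) was at 10.8 FPKM in the control and 29.7 FPKM with YWHAB. These values rest on 168 and 515 fragments. In bulk RNA, a change in the share of cells that express a gene and a change in RNA per cell cannot be told apart. The ratio was 2.75, with a 95% counting interval of 2.30 to 3.29, which covers counting error only. Of all genes compared 0.35% were at least as far above the control library. In rank by level among the genes compared, SGK1 stood at percentile 43.3 in the control and 67.2 with YWHAB.

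SGK3, a relative that carries a lipid-binding PX domain and sits on endosomes, is not known as a glucocorticoid target. It was at 11.6 FPKM in the control and 6.89 FPKM with YWHAB, from 221 and 147 fragments. The ratio was 0.596 (counting interval 0.480 to 0.738), and 5.01% of genes were at least as far below. The gene (ENSG00000104205) spans 66667596 to 66862022 of chromosome 8, plus strand, and 6.04% of its exon bases overlap C8orf44, not analysed here, on the same strand. Of its transcript 50-mers 6.25% also occur in other genes, against at most 0.544% for the other 8 members, so reads in those stretches are uncertain.

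SGK2, the remaining kinase of the family, was below the level filter at 0.772 and 0.980 FPKM, from 12 and 17 fragments, and its ratio of 1.27 had a counting interval of 0.571 to 2.91. FPKM is a level per counted length, here close to the mean length of a gene's annotated transcripts (1254 nt counted for SGK1, 1545 nt for SGK3). That mean can differ from the length of the transcripts expressed, so FPKM ratios and shares between genes are approximate as levels. SGK1 and SGK3 were at near equal FPKM in the control, with SGK1 at 0.937 times SGK3. With YWHAB, SGK1 was 4.32 times SGK3. SGK1 made up 46.8% of the summed FPKM of the 3 kinases in the control and 79.1% with YWHAB, while SGK3 made up 49.9% and 18.3%. The family sum was 23.2 FPKM in the control and 37.6 FPKM with YWHAB.

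NR3C1, the glucocorticoid receptor gene, was higher with YWHAB. The gene (ENSG00000113580) lies on chromosome 5 from 143277931 to 143435512 on the minus strand. It was at 48.8 FPKM in the control and 64.8 FPKM with YWHAB, from 1518 and 2251 fragments. The ratio was 1.33 (counting interval 1.24 to 1.42), and 12.5% of genes were at least as far above. Intervals that exclude equal levels were common, with 27.8% of all genes compared above 1 and 21.8% below, so a counting interval off 1 does not set a gene apart. NR3C2, the mineralocorticoid receptor that binds the same hormones, was at 8.63 and 6.62 FPKM, so that NR3C1 was 5.65 times NR3C2 in the control and 9.80 times with YWHAB. The progesterone and oestrogen receptor genes PGR, ESR1 and ESR2, named after their values were seen, were each at 0.305 FPKM or less.

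**Figure D2:**
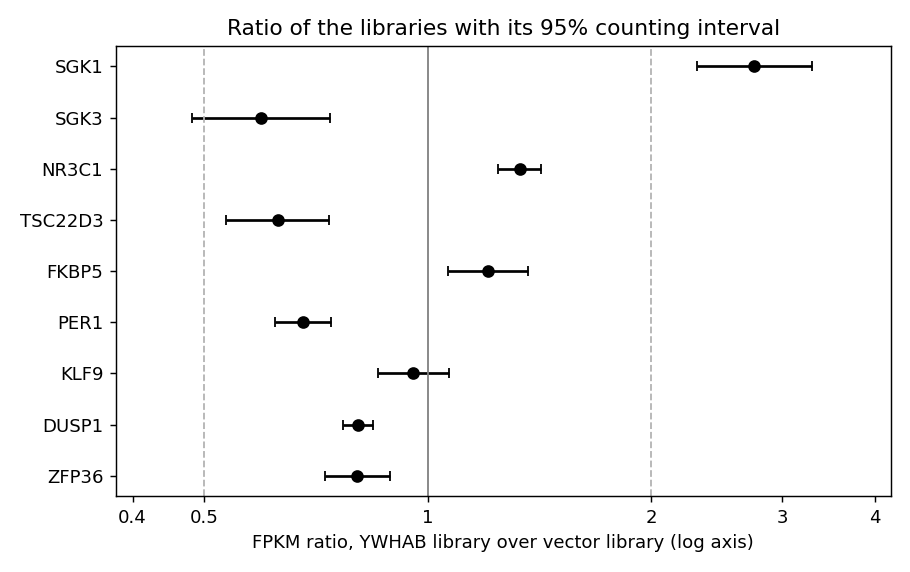
Ratio of FPKM, YWHAB library over control library, on a log axis for the 9 genes. Points are ratios, bars are 95% counting intervals, the solid line is equal levels and dashed lines are 2-fold. SGK1 lies at 2.75, and the interval of KLF9 is the 1 that includes equal levels.

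None of the 6 receptor targets other than SGK1 passed the 2-fold rule, which 0.686% of all genes compared passed as higher and 1.97% as lower. Counting intervals lay below equal levels for 4 of them (TSC22D3, PER1, DUSP1 and ZFP36), above for FKBP5, and included equal levels for KLF9. Over all genes compared 21.8% of intervals lay below and 27.8% above, and these 6 genes were chosen with earlier results in view. Their median difference was -0.31 and their summed FPKM 313 and 243, of which DUSP1 alone made up 148 and 119.

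TSC22D3 encodes GILZ, a leucine zipper protein that carries part of the anti-inflammatory action of glucocorticoids. The gene (ENSG00000157514) lies on chromosome X from 107713221 to 107777342 on the minus strand. It was at 28.8 FPKM in the control and 18.1 FPKM with YWHAB, from 384 and 269 fragments, a ratio of 0.628 (counting interval 0.535 to 0.736). Of all genes compared 5.48% were at least as far below. SGK1 was 0.376 times TSC22D3 in the control and 1.65 times with YWHAB, so the order of the pair turned over.

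FKBP5 encodes FKBP51, an HSP90 co-chaperone that lowers the hormone affinity of the receptor and forms a feedback loop. The gene (ENSG00000096060) lies on chromosome 6 from 35573585 to 35728583 on the minus strand. It was at 7.77 FPKM in the control and 9.37 FPKM with YWHAB, from 455 and 612 fragments, a ratio of 1.21 (counting interval 1.07 to 1.36). The difference of 0.24 shrank to 0.10 after correction for length and GC content, and its counted length is 4731 nt. FKBP4, which encodes the co-chaperone FKBP52 that opposes FKBP51, was at 145 and 180 FPKM. FKBP5 was 0.0537 times FKBP4 in the control and 0.0520 times with YWHAB.

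PER1, a repressor in the circadian clock, is also induced directly by glucocorticoids and cyclic AMP. The gene (ENSG00000179094) lies on chromosome 17 from 8140472 to 8156506 on the minus strand. It was at 67.5 FPKM in the control and 45.9 FPKM with YWHAB, from 1231 and 933 fragments. The ratio was 0.679 (counting interval 0.623 to 0.740), and 7.50% of genes were at least as far below. PER2, its paralogue, lay the other way at 1.29 and 2.62 FPKM, so PER1 was 52.1 times PER2 in the control and 17.5 times with YWHAB.

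KLF9, a zinc finger transcription factor, had the smallest difference of the members. The gene (ENSG00000119138) lies on chromosome 9 from 70384597 to 70414624 on the minus strand. It was at 10.04 FPKM in the control and 9.60 FPKM with YWHAB, from 643 and 686 fragments, a ratio of 0.956 (counting interval 0.857 to 1.07). Its difference of -0.06 became -0.24 after correction for length and GC content.

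DUSP1, a phosphatase that switches off p38, JNK and ERK, had the highest FPKM of the members in both libraries. The gene (ENSG00000120129) lies on chromosome 5 from 172768090 to 172771195 on the minus strand. It was at 148 FPKM in the control and 119 FPKM with YWHAB, from 3692 and 3316 fragments, a ratio of 0.805 (counting interval 0.768 to 0.844). Of all genes compared 17.5% were at least as far below.

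ZFP36 encodes tristetraprolin, which binds AU-rich elements and speeds the decay of cytokine messages. The gene (ENSG00000128016) spans 39406813 to 39409412 of chromosome 19, plus strand. It was at 51.0 FPKM in the control and 40.98 FPKM with YWHAB, from 804 and 721 fragments, a ratio of 0.804 (counting interval 0.726 to 0.890). ZFP36 and DUSP1 kept nearly the same proportion, with ZFP36 at 0.344 times DUSP1 in both libraries.

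**Figure D3:**
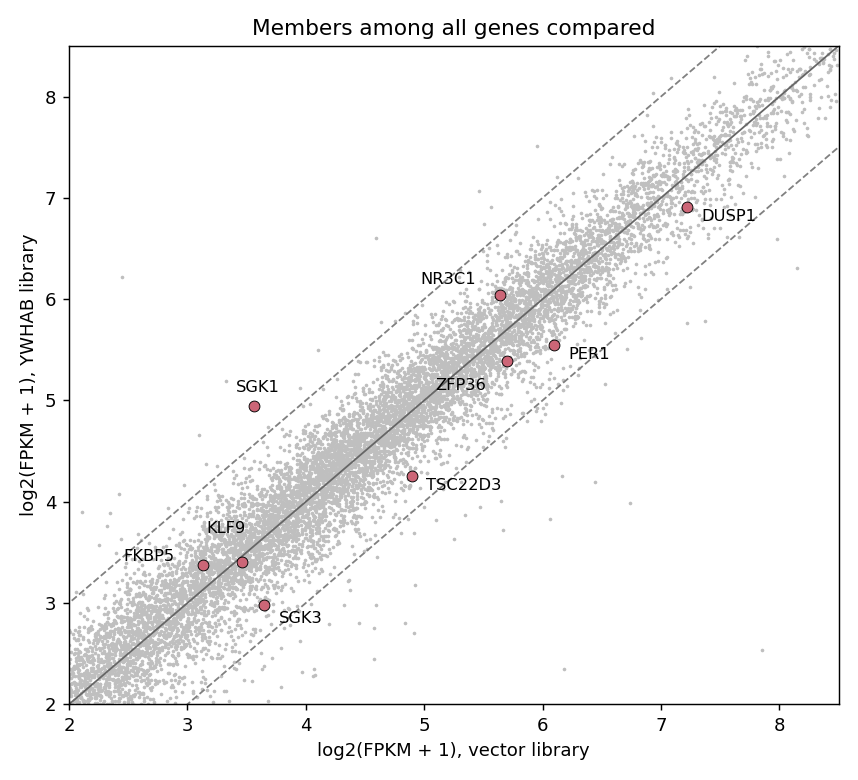
Each grey point is a gene past the level filter, placed by log2(FPKM + 1) in the control (horizontal) and the YWHAB library (vertical), with the axes shown over the range of the members. The solid line is equal levels and the dashed lines are a difference of 1 either way. SGK1 is the 1 labelled member outside the dashed lines, at a difference of 1.38.

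In order of FPKM, the control library ran from DUSP1 through PER1, ZFP36, NR3C1, TSC22D3, SGK3, SGK1 and KLF9 to FKBP5. In the YWHAB library NR3C1 moved ahead of PER1 and ZFP36, SGK1 moved ahead of TSC22D3, and SGK3 became the lowest. With 1 library per group, whether neighbours in this order differ beyond replicate spread could not be examined. The 5 protein-coding genes nearest to SGK1 in the plane of log2(FPKM + 1) of the 2 libraries were CDCA7, GRAMD1B, ABCA3, DOCK4 and CCDC57. They lay within 0.389 of it, and the nearest, CDCA7, was at 12.9 and 25.3 FPKM. Likeness over 2 libraries is a likeness of 2 values only.

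Promoter windows from 250 bases before to 50 after each RefSeq start (GRCh38.p14) were available for every member except SGK3. There were 20 windows in all because several genes have more than 1 start. They are shown for SGK1, the 1 member past the 2-fold rule, and for PER1 and DUSP1, members on the opposite side that hold a searched motif. The SGK1 window covers the start that 7 GENCODE transcripts share within 10 nt, whereas 0 GENCODE transcripts start that near to the PER1 start and 1 to that of DUSP1. It lies at chr6:134174817-134175116, that of PER1 at chr17:8152355-8152654 and that of DUSP1 at chr5:172771146-172771445, all printed 5′ to 3′ on the minus strand. Capitals mark a cyclic AMP response element (TGACGTCA) or an E-box (CACGTG), the site bound by clock and MYC factors, and the SGK1 window holds neither.
SGK1: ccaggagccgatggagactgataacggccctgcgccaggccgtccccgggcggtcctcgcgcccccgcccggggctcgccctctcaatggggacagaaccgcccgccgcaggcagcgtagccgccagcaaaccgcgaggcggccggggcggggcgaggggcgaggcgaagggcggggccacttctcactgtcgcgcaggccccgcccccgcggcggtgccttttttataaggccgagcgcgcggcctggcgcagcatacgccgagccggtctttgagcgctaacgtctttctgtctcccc
PER1: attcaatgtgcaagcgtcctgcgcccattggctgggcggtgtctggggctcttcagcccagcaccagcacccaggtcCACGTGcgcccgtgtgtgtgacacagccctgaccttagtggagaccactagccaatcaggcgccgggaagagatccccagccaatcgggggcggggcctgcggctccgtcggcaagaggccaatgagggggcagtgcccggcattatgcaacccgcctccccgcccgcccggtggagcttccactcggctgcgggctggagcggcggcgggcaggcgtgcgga
DUSP1: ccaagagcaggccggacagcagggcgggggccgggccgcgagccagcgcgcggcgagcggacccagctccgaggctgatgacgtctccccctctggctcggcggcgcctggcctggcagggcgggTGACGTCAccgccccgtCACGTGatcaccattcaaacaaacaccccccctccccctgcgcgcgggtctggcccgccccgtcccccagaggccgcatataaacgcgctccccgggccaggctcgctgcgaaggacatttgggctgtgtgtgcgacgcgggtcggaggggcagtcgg

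No member window held the glucocorticoid response element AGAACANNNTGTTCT or its looser core GNACANNNTGTNC, searched on both strands, and these letters are in 0.00285% and 0.39% of all 35116 windows. SGK3 had no window and was not searched. Absence from a window this short says nothing of more distant elements. The cyclic AMP element TGACGTCA was in the DUSP1 window, at -125 to -118 from the start, and is in 1.85% of all windows. E-boxes (CACGTG) were in 3 of the 20 windows, those of DUSP1, PER1 and 1 start of FKBP5, and are in 7.26% of all. The CArG box, the serum response site, was in 0 of the 20 and in 1.29% of all. Matches are a description of letters. Genes with the cyclic AMP element in a window had a median difference of 0.02 (364 genes) and those without 0.04 (9132 genes). For the glucocorticoid response element core the medians were -0.05 with it (30 genes) and 0.04 without (9466 genes). For the E-box they were 0.07 (1197 genes) and 0.03 (8299 genes), and for the CArG box 0.06 (145 genes) and 0.04 (9351 genes).

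Messages of rapidly induced genes often carry AU-rich elements in the 3′ UTR, to which the ZFP36 protein binds. In the chosen GENCODE 29 transcript, the letters TATTTAT, searched on the transcript strand, occurred in 5 of the 9 members, beside 33.4% of 11413 coding genes compared. At least 2 copies were in 3 members (SGK3, DUSP1 and ZFP36) and in 13.9% of genes. ZFP36 had 7.01 ATTTA pentamers per kb of 3′ UTR, DUSP1 5.95 and SGK1 4.92, beside a median of 1.65. TSC22D3, FKBP5, NR3C1 and KLF9 held no copy of TATTTAT. The members with a copy were therefore on both sides, SGK1 higher and SGK3, PER1, DUSP1 and ZFP36 lower. Over these coding genes the median difference was 0.03 with a copy (3813 genes) and 0.04 without (7600 genes).

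The sites are shown for SGK1, PER1, DUSP1 and ZFP36 in windows of 27 nt of the transcript (GRCh38), because the messages hold the letters that tristetraprolin binds, which are in capitals. In order they lie at chr6:134169478-134169504, chr17:8140708-8140734, chr5:172768644-172768670 and chr19:39409197-39409223, on the plus strand for ZFP36 and the minus strand for the others. For DUSP1 and ZFP36 1 of 3 sites is given. SGK3 also holds the letters, and its sites are not reported here.
SGK1: aaatgggcatTATTTATgttttttttt
PER1: gggctgcactTATTTATtgcggggaga
DUSP1: ggctggtcctTATTTATttaacttcac
ZFP36: atgacgacttTATTTATtctaatatga

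Genes that carry the hormone signal, chaperones and coregulators of the receptor, were mostly slightly higher with YWHAB. Of 22 measured genes of this list, NR3C1 and FKBP5 included, 0 were 2-fold higher and 1 was 2-fold lower, with a median difference of 0.28 beside 0.03 over all genes. For 16 of them the counting interval was above equal levels, and for 3 below. Counting intervals narrow as fragments rise, so this count favours abundant genes and is not fully alike the share over all genes. HSP90AB1, named after its values were seen, had a ratio of 1.07 (1.06 to 1.09) from 27747 and 33234 fragments. Over all genes compared, 27.8% of intervals lay above and 21.8% below, and 0.686% of genes were 2-fold higher and 1.97% lower. This list and those below were chosen with earlier results of these data known, so nothing is read from their shares. The coactivator CREBBP was at 28.8 and 44.8 FPKM and the coactivator EP300 at 46.5 and 69.9. The 1 member 2-fold lower was HSD11B1, the enzyme that regenerates active cortisol from cortisone, at 5.62 and 1.31 FPKM, from 77 and 20 fragments. Its ratio was 0.233 (counting interval 0.135 to 0.385). With the filter at a mean of 5 FPKM the list held 0 genes 2-fold lower.

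Other glucocorticoid-induced genes had more counting intervals below equal levels than above. Of 34 measured genes 3 were 2-fold lower and 0 higher, and counting intervals lay below equal levels for 19 and above for 5. Over all genes compared, 1.97% were 2-fold lower and 0.686% higher, and 21.8% of intervals lay below and 27.8% above. The median difference was -0.32, beside 0.03 over all genes. The 3 were LCN2, the siderophore-binding lipocalin, at 70.8 and 18.1 FPKM, PDK4, a kinase that restrains pyruvate oxidation, at 11.3 and 4.68, and ANGPTL4, a lipase inhibitor, at 61.0 and 29.3. After rescaling to TPM 2 genes of the list were 2-fold lower. STOM, a membrane scaffold protein, was at 21.0 and 11.7 FPKM. The metallothionein MT2A (897 and 932 FPKM), the NF-kB inhibitor NFKBIA (79.6 and 88.5) and ERRFI1, a feedback inhibitor of the EGF receptor (1016 and 1149), were slightly higher. They are among the 5 genes with an interval above equal levels. Another metallothionein, MT1E, was lower at 61.0 and 48.4 FPKM. All of these were named after their values were seen. ZBTB16, TAT and PCK1, strong targets in other tissues, likewise named with their values known, were listed at 0 in both libraries.

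Genes that glucocorticoids repress had a median on the same side. Of 17 measured genes 6 were 2-fold lower and 0 higher, the median difference was -0.73, and counting intervals lay below equal levels for 12 and above for 4. These counts stand beside 1.97% of all genes 2-fold lower, 0.686% higher, 21.8% of intervals below and 27.8% above. The list was chosen with earlier results of these data known, so nothing is read from its share. MMP1, MMP3, MMP9 and MMP13, of 1 protease family, are among the 6. The proteases MMP3, MMP1 and MMP13 and the chemokine CCL20 had the largest differences of the list. MMP3 was at 231 and 4.79 FPKM, MMP1 at 4158 and 894, CCL20 at 22.9 and 4.44, and MMP13 at 1.998 and 0.326. IL1A (50.2 and 22.2 FPKM) and MMP9 (5.81 and 2.20 FPKM), named after their values were seen, were the other genes past the 2-fold rule. PTGS2, the inducible cyclooxygenase, was at 49.1 and 29.3 FPKM, and IL1B at 404 and 276, the latter named after its values were seen. Against this, IL6 was at 28.1 and 38.1 FPKM and CXCL8 at 348 and 401 (genes picked with their values known), and CXCL1 was at 67.9 and 121.

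**Figure D4:**
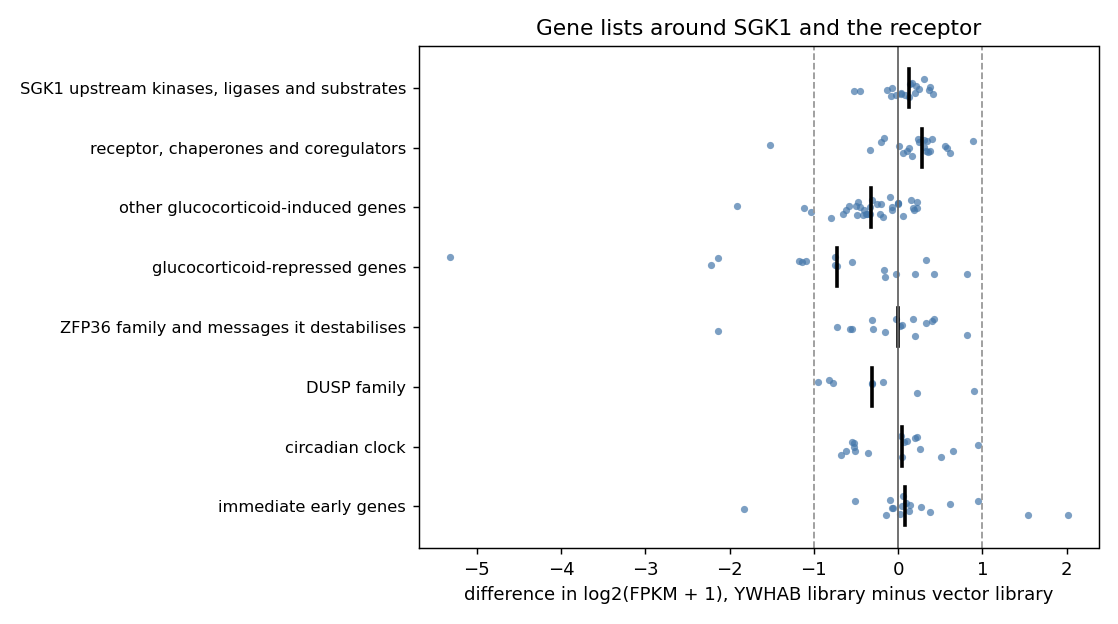
Each point is a measured gene of a list, placed by its difference in log2(FPKM + 1), YWHAB library minus control library. Points are spread vertically for legibility only. Black bars are list medians and dashed lines mark a difference of 1 either way. The medians are 0.28 for receptor, chaperones and coregulators, -0.32 for other induced genes and -0.73 for repressed genes.

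Around SGK1 itself stand the kinases that activate it, the ligases that degrade it and its substrates. Of 19 measured genes 0 passed the 2-fold rule in either direction, and the median difference was 0.13, beside 0.03 over all genes. The counting interval was above equal levels for 9, below for 3 and included them for 7. Among all genes compared the interval was above for 27.8% and below for 21.8%, and 0.686% were 2-fold higher and 1.97% lower. SYVN1, an endoplasmic reticulum ubiquitin ligase that acts on SGK1, was at 83.9 FPKM in the control and 58.1 FPKM with YWHAB. FOXO3, a transcription factor that SGK1 phosphorylates, was at 12.4 and 8.76 FPKM. RPTOR, of the mTORC1 complex, was at 48.1 and 64.6 FPKM and TSC2 at 30.0 and 39.2. The substrates NDRG1 (874 and 965 FPKM) and NEDD4L (82.2 and 78.1 FPKM), named after their values were seen, differed little.

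SGK1, DUSP1, ZFP36 and PER1 are also immediate early genes in many cells. In a list of other immediate early genes 18 were measured, of which 2 were 2-fold higher and 1 was 2-fold lower. Among all genes compared 0.686% were 2-fold higher and 1.97% lower. The median difference of this list was 0.08. FOS, an AP-1 subunit, was at 23.1 and 96.4 FPKM and NR4A2, an orphan nuclear receptor, at 4.07 and 13.8. KLF2, at 2.13 and 5.05 FPKM, was not called, at a difference of 0.95. With a pseudocount of 0.1, 3 genes of the list were 2-fold higher. ATF3, a stress transcription factor, was lower at 22.9 and 5.72 FPKM. EGR1 (57.4 and 54.9 FPKM) and JUNB (57.2 and 51.6 FPKM), named after their values were seen, had ratios of 0.956 and 0.902. The list therefore held genes on both sides of equal levels.

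Of 8 measured MAP kinase phosphatases, DUSP1 included, 0 passed the 2-fold rule. The median difference was -0.31, and counting intervals lay below equal levels for 6 and above for 2. Among all genes compared 21.8% of intervals lay below and 27.8% above, and 0.686% of genes were 2-fold higher and 1.97% lower. DUSP5, which acts on nuclear ERK, was at 188 and 96.9 FPKM, DUSP10 at 45.7 and 26.4, and DUSP8 at 1.74 and 0.548. With a pseudocount of 0.1, and likewise after correction for length and GC content, 1 phosphatase gene was 2-fold lower. DUSP4, another nuclear phosphatase, lay the other way at 77.6 and 145 FPKM.

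ZFP36, its relatives and messages that its protein destabilises had a median difference of -0.01. The sign turned with no filter (0.02), after rescaling to TPM (0.03) and after correction for length and GC content (0.0085). Of 16 measured genes 1 was 2-fold lower, CCL20, and 0 higher, beside 1.97% lower and 0.686% higher over all genes compared. ZFP36L1, a relative that also binds AU-rich elements, was at 563 and 380 FPKM, so that ZFP36 was 0.0905 times ZFP36L1 in the control and 0.108 times with YWHAB.

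Of 4 measured genes of the TSC22 family, TSC22D3 included, 0 passed the 2-fold rule, and the median difference was -0.44. Over all genes compared 0.686% were 2-fold higher and 1.97% lower, so 0 of so few genes is near that share. TSC22D2 was at 20.4 and 12.1 FPKM, TSC22D4 at 62.3 and 52.8, and TSC22D1, a relative that responds to TGF-beta, at 231 and 241. TSC22D1 was thus the 1 member of the family that was higher with YWHAB.

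Of 17 measured circadian clock genes, PER1 included, 0 passed the 2-fold rule, beside 0.686% higher and 1.97% lower over all genes compared. A count of 0 is near these shares and is no result about clock genes. The median difference was 0.05, and it was -0.51 when the mean had to reach 5 FPKM. NPAS2, a paralogue of the activator CLOCK, was at 18.2 and 35.9 FPKM. NFIL3, a repressor of clock output genes, was at 17.7 and 10.7 FPKM, and CRY2, a partner of the PER proteins, at 21.1 and 13.4. Clock genes therefore lay on both sides, as the PER paralogues did.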

How the data were processed

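RNA-seq was made from 2 libraries of MDA-MB-231. The deposited table gives FPKM per Ensembl gene, made by the authors. HISAT2 2.0.5 and hg38 are named per the submitters' processing notes, while the counter, annotation and strand use were not given in the sources used here. Fragments were recovered from the steps of the FPKM values, and 26765 of 26770 genes above 0 came out whole within 1e-11. For 14.1% of genes the smallest length giving whole counts was multiplied to come nearest the mean GENCODE transcript length. YWHAB was among them, with a multiple of 7, so its counting interval rests on that choice. No member needed a multiple. Differences are log2(FPKM + 1), YWHAB library minus vector library, for genes whose mean reached 1 FPKM. Ratios have exact 95% counting intervals, which cover counting error only. For a gene of 1 kb, 3 fragments correspond to 0.242 and 0.217 FPKM. Alternatives changed the pseudocount, the filter, the scaling, and length and GC correction. The calculations were tested on simulated data. The members and the gene lists were chosen with earlier results of these data known. By rule the named genes are the members, SGK2, up to 4 other genes per list with the largest differences, and the 5 nearest to SGK1. Further genes were named after their values were seen, as marked in the text, along with YWHAB, the over-expressed gene; some listed genes are not reported here. Promoters are from RefSeq (GRCh38.p14), and positions and transcripts from GENCODE 29, which held 58542 of the identifiers.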

Additional observations from a re-analysis of the deposited data

How the results depend on the processing

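No member changed sign under the 6 alternatives, and SGK1 was called in each, at differences from 1.34 to 1.45. Over all genes, 92 were 2-fold higher and 265 lower. The higher count was 40 at a mean of at least 5 FPKM, 155 with no filter and 222 with a pseudocount of 0.1, and the lower count was 112 at a mean of at least 5 FPKM and 471 with a pseudocount of 0.1. The repressed genes' median of -0.73 was -0.36 with no filter and -0.55 at a mean of at least 5 FPKM. Leaving out a library was not possible with 1 per group. No paired analysis was possible because each group holds 1 library and the result comes from no test. The fewest fragments behind a member's value were 147, for SGK3 in the YWHAB library.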

Other observations

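KLF9 and FKBP5 belong to families whose other members can be set beside them. Of 13 measured KLF genes 0 passed the 2-fold rule, and the median difference was 0.06. That count is near the share over all genes compared, 0.686% higher and 1.97% lower. With a pseudocount of 0.1, 1 was 2-fold higher. KLF2, a zinc finger factor known from endothelium, was at 2.13 and 5.05 FPKM from 34 and 90 fragments, and KLF12 at 3.84 and 5.35. KLF5 was at 15.4 and 11.6 FPKM and KLF10, which responds to TGF-beta, at 44.6 and 36.5.

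Of 13 measured FK506-binding protein genes 0 passed the 2-fold rule, near the share over all genes compared (0.686% higher and 1.97% lower). The median difference of 0.02 changed sign with no filter, with median-ratio scaling and with length and GC correction. FKBP14, FKBP7 and FKBP10, prolyl isomerases of the endoplasmic reticulum, were at 20.3 and 12.7, 2.61 and 1.70, and 2.58 and 1.69 FPKM.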
